A study of Mus musculus with 48 samples.

Results

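The genes described here are 31 transcripts that mark microglia, the resident macrophages of the brain, read in the cerebral cortex of mice. They are given as a list of symbols, which matched 32 of the 48795 rows of the count table. 31 of those rows, 1 per symbol, held enough counts to enter the test, which ran over 19547 genes; the 32nd row is a further entry under the symbol Itgam that held 33 counts in all 48 libraries together.

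The study sequenced RNA from the cortex of mice aged 12 months, 8 mice in each of 6 genotype groups, with 4 females and 4 males in each. The groups were wild type, Msh3+/-, Msh3-/-, Q140, Q140 with Msh3+/- and Q140 with Msh3-/-, all labelled as C57BL/6 in background. Q140 is a knock-in mouse model of Huntington's disease that carries an expanded CAG repeat in Htt. All Q140 carriers here are labelled as heterozygous for the knock-in. Msh3 encodes a mismatch repair protein that promotes further growth of such repeats. The comparisons therefore ask what Q140 does to cortical transcripts, what the Msh3 genotype does, and whether the Msh3 genotype alters the effect of Q140. The Msh3 mutations are labelled as whole-body genotypes, with no promoter or cell type named.

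Reads assigned to genes came to between 37.7 M and 68.3 M per library, with a median of 48.6 M. The Msh3 transcript was higher, not lower, in the libraries labelled as mutant. It stood at 22.4 ± 1.16 CPM (counts scaled to a common library total; mean ± SD, n = 8) in wild type, 60.1 ± 3.06 CPM in the libraries labelled Msh3+/- and 99.2 ± 8.15 CPM in those labelled Msh3-/-, so it separates the groups but runs against a loss of the transcript; these groups are named below by their labels. Htt was at 252 ± 13 CPM without Q140 and 245 ± 12.2 CPM with it (n = 24 each), and its count does not tell the alleles apart. In 3 libraries the summed level of choroid plexus or pituitary genes was over 10 times the median, and in 11 libraries that of red cell genes was. Most of those 11 were female, and none came from wild type or from Msh3+/- without Q140. Leaving them out therefore thins the groups and the sexes unevenly.

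Microglia depend on signalling through the receptor Csf1r and on the transcription factor PU.1, encoded by Spi1, and they survey the tissue with receptors for chemokines and nucleotides such as Cx3cr1 and P2ry12. They are the main source of the complement component C1q in the brain, which tags synapses and debris, and they sense lipids and damaged cells through Trem2 with its adaptor Tyrobp. In Huntington's disease and in other disorders with neuronal loss, microglia can lose the transcripts of this resting state and gain others.

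In tissue RNA, fewer microglia and less RNA per microglial cell cannot be told apart. Each of the 31 genes was detected in every library. Passing the filter on low counts made this likely beforehand, and detection does not show that the reads came from microglia. Genes of blood myeloid cells summed to 1.69 to 5.15 CPM per library over 14 genes, and only 2 of the 14 passed the filter on low counts, while the microglia genes summed to between 525 and 678 CPM. Genes of the macrophages at the brain's borders summed to 18.6 to 47.6 CPM over 16 genes.

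The sequences just before the start sites of some of these genes carry the short core bound by PU.1 and related factors. It is spelled GAGGAA on either strand (TTCCTC on the other) and was the only motif searched here. RefSeq windows on GRCm38.p6, from 250 bases before to 50 after the start, were given for 24 of the 31 genes. 17 of these 24 genes (70.8%) held the core in at least 1 window, against 8446 of all 27025 genes with a window (31.3%), which is a description of the letters and not of binding. The 150 bases before the start are printed for 5 genes that recur in the results and whose stretch touches no annotated exon. C1qb and Olfml3 are genes that were lower in males, Trem2 and P2ry13 are receptors described for the Msh3 comparisons, and Itgam is an integrin chain whose stretch holds the core on both strands. Capitals mark the core; the stretches read 5′ to 3′ on the gene's strand and lie at chr4:136886201-136886350 (minus strand, C1qb), chr3:103738002-103738151 (minus, Olfml3), chr17:48346251-48346400 (plus, Trem2), chr3:59210883-59211032 (minus, P2ry13) and chr7:128062490-128062639 (plus, Itgam).
C1qb: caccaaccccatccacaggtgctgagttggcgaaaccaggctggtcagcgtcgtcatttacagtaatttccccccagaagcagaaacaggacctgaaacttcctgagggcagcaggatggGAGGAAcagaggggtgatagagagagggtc
Olfml3: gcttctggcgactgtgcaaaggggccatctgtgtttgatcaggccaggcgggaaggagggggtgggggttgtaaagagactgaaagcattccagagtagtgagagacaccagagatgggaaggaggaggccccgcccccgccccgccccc
Trem2: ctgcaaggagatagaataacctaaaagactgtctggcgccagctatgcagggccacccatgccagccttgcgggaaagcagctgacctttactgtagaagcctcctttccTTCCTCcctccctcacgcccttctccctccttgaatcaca
P2ry13: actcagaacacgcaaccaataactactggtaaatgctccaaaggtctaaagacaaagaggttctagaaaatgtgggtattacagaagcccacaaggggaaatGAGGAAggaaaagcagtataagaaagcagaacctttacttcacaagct
Itgam: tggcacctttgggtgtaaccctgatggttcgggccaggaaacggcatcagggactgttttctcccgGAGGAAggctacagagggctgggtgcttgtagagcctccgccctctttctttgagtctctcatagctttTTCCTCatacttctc

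Levels were compared between genes as FPKM, which divides by gene length. Ctss, a lysosomal protease, was the most abundant at 39.1 ± 3.82 FPKM (mean ± SD, n = 48), followed by the C1q chains C1qa at 31.7 ± 3.02 FPKM and C1qb at 29.3 ± 3.15 FPKM. Their ranges over the 48 libraries overlapped. The receptor Csf1r came next at 17.3 ± 1.32 FPKM and the third chain, C1qc, at 15 ± 1.35 FPKM. P2ry12, Tyrobp and Cx3cr1 lay between 11.1 and 12.3 FPKM and did not differ among themselves beyond their spread. The middle of the order held Itgb5, Laptm5, Fcrls and Tmem119, with mean levels of 6.98 to 8.94 FPKM. At the low end, PU.1's gene Spi1 was at 0.865 ± 0.151 FPKM and the phosphatase gene Ptprc (CD45) at 0.201 ± 0.0295 FPKM, between 99 and 274 reads per library. In a typical library the C1qa level was 1.08 ± 0.0522 times that of C1qb, and the C1qc level 0.515 ± 0.032 times.

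**Figure D1:**
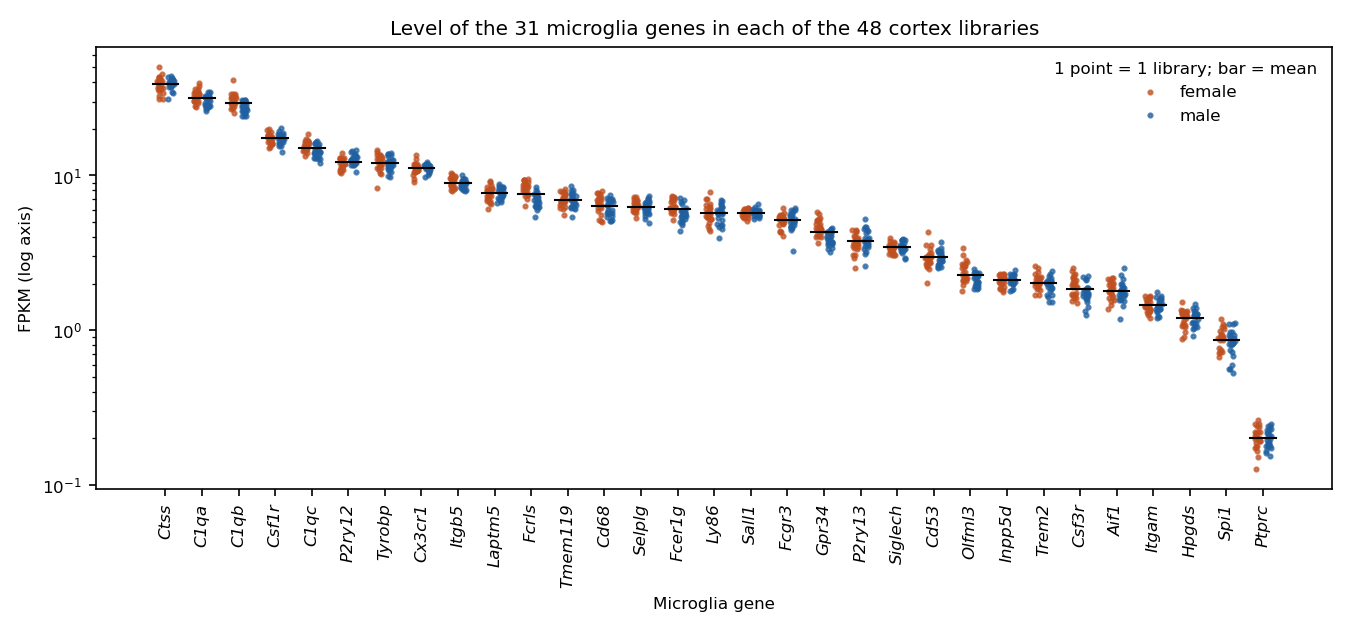
FPKM (log axis) of the 31 microglia genes in the 48 libraries, ordered by mean level; each point is 1 library, coloured by sex, and the bar is the mean of all 48. Ctss leads at 39.1 FPKM and Ptprc is lowest at 0.201 FPKM.

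The microglia genes differed little between mice with and without Q140. None of the 31 was called in Q140 against wild type by edgeR's quasi-likelihood test at an adjusted p under 0.05 (Benjamini-Hochberg over all genes), where 0.102% of all genes tested were, and DESeq2 also called none; 1 of 31 had an unadjusted p under 0.05. On the Msh3+/- background none was called (0.0512% of all genes; 1 at an unadjusted p under 0.05), and on the Msh3-/- background none was (0.0205% of all genes; 0 at an unadjusted p under 0.05). Over the 3 Msh3 genotypes together, 24 carriers against 24 non-carriers, none was called where 1.47% of all genes were, with 1 of 31 at an unadjusted p under 0.05 and none called by DESeq2.

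The intervals say how large a Q140 difference these data leave room for. Over 24 carriers and 24 non-carriers, the 95% intervals of all 31 genes lay within 0.25 of 0 on the log2 scale. The widest was that of Spi1, from -0.08 to 0.21, and the narrowest that of Sall1, a factor that maintains microglial identity, from -0.03 to 0.06. The median log2 fold change of the 31 was 0.01, beside a median of 0.00 over all genes tested. With 8 mice a group, in Q140 against wild type, 22 of the 31 intervals lay within 0.25 and all 31 within 0.5.

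Among receptors, Csf1r, which takes the growth factors Csf1 and Il34, averaged 85.9 ± 5.77 CPM in the 24 carriers and 83.5 ± 6.52 CPM in the 24 others (SD). Cx3cr1, the receptor of the neuronal chemokine Cx3cl1, was at 41.5 ± 3.37 CPM in carriers and 41.8 ± 2.54 CPM in the others. P2ry12, the ADP receptor that steers microglial processes, was at 31.4 ± 2.79 and 31.3 ± 2.72 CPM. Their log2 fold changes were 0.04 ± 0.03 (SE), -0.01 ± 0.03 and 0.01 ± 0.03. Tmem119, a surface marker of resident microglia, was at 16.5 ± 1.57 and 15.8 ± 1.57 CPM.

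The member with the smallest p over all carriers was Laptm5, a lysosomal membrane protein. Its level ran from 24.5 CPM over a median of 29.9 to 34.5 CPM in carriers and from 23.2 over 28.2 to 35.1 CPM in non-carriers. The ranges overlapped almost wholly, and the log2 fold change of 0.08 ± 0.04 had an adjusted p of 0.255 (edgeR). Itgb5, an integrin chain, was next, at 27.2 to 34.6 CPM in carriers with a median of 30.6, and 26.7 to 34.0 CPM in the others with a median of 29.1. Its difference was 0.05 ± 0.03 (adjusted p = 0.337, edgeR). With well column as a term both were smaller, at 0.032 for Laptm5 and 0.025 for Itgb5.

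In Q140 against wild type alone, Hpgds, which makes prostaglandin D2, had the smallest p. Its level ran from 5.75 to 8.58 CPM with a median of 6.83 in Q140, and from 6.93 to 9.69 CPM with a median of 8.03 in wild type, so the groups overlapped. The log2 fold change was -0.20 ± 0.08 with an adjusted p of 0.464 (edgeR). Fcrls, an Fc receptor-like scavenger molecule, was next at -0.14 ± 0.07 (adjusted p = 0.578, edgeR), with 13.8 to 22.4 CPM around a median of 15.5 in Q140 and 16.9 to 21.9 CPM around 18 in wild type. On the Msh3+/- background Gpr34, a receptor for lysophosphatidylserine, and Aif1, which encodes the microglial stain Iba1, came lowest in p. Gpr34 ran from 8.30 over 9.22 to 12.3 CPM with Q140 and from 7.19 over 8.18 to 10.8 CPM without, a log2 fold change of 0.17 ± 0.07 (adjusted p = 0.548, edgeR). Aif1 ran from 2.38 over 2.9 to 3.49 CPM with Q140 and from 2.09 over 2.52 to 3.09 CPM without, a log2 fold change of 0.20. These groups overlapped too, and the values came to 0.28 for Gpr34 without the libraries of high red cell level and 0.118 for Aif1 with well column as a term. On the Msh3-/- background the smallest p values were those of Olfml3, a secreted matrix protein of microglia, at 0.17 ± 0.09, and Laptm5 at 0.12 ± 0.06, with adjusted p of 0.730 and 0.731 (edgeR). Olfml3 ran from 12.8 over 14.9 to 16.8 CPM with Q140 and from 11 over 11.7 to 21 CPM without, where a single female library held the top value. Without that library, Msh3-/- female 3, Olfml3 came to 0.276 (adjusted p = 0.232, edgeR), and Laptm5 came to 0.043 without the libraries of high red cell level.

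**Figure D2:**
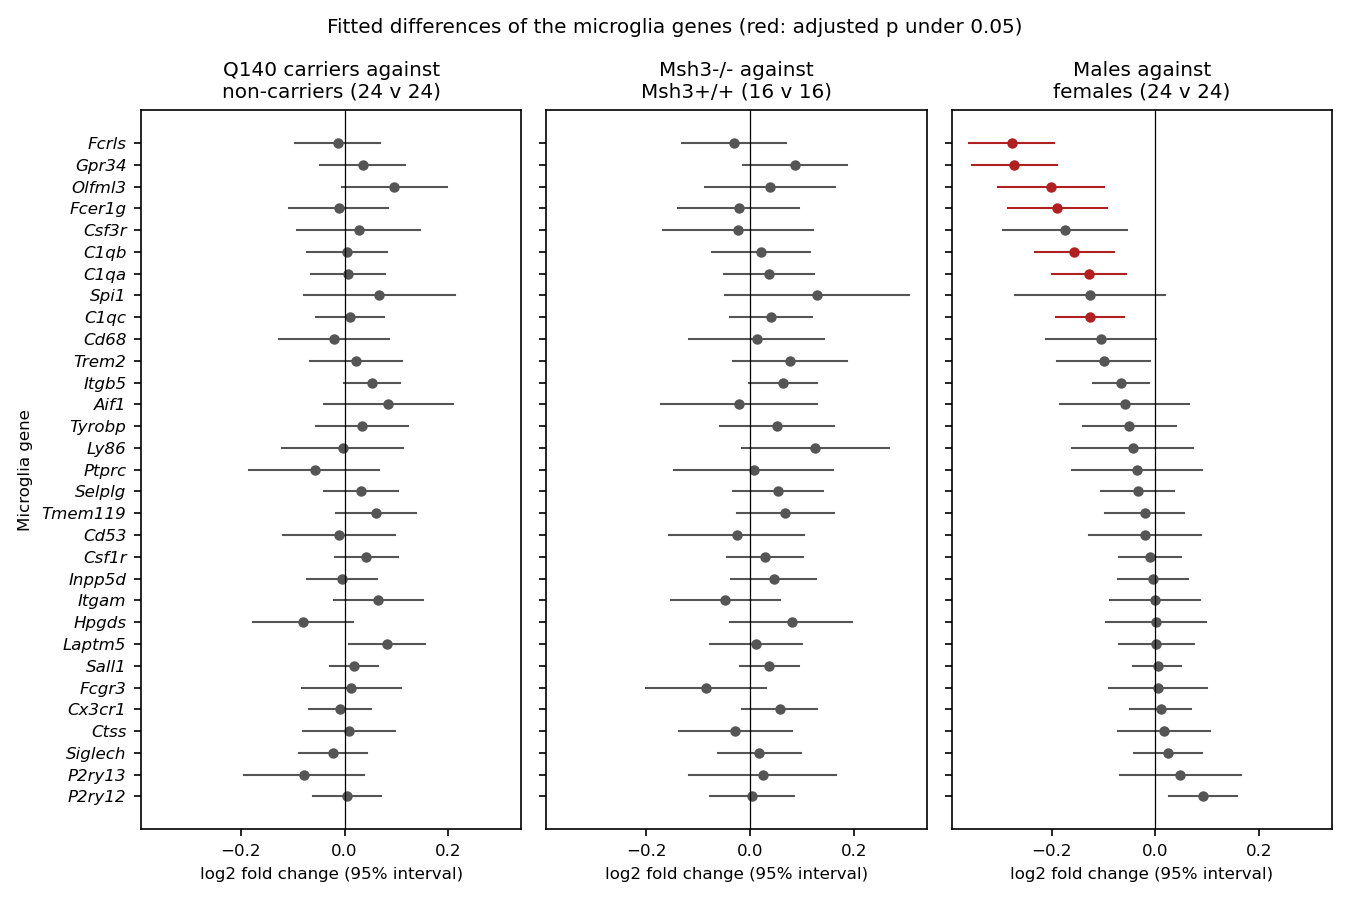
Fitted log2 fold change (point) and 95% interval (line) of each microglia gene for Q140 carriers against non-carriers, for Msh3-/- against Msh3+/+ and for males against females; red marks an adjusted p under 0.05. No gene is red in the genotype panels, and 7 are red and below 0 in the sex panel.

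The Msh3 labels gave no call among the microglia genes either. None of the 31 was called for Msh3+/- set against wild type (0.0307% of all genes; 0 with an unadjusted p under 0.05), for Msh3-/- set against wild type (0.113% of all genes; 0), in Q140 Msh3+/- against Q140 (0.0307% of all genes; 2) or in Q140 Msh3-/- against Q140 (0.102% of all genes; 2), by edgeR or by DESeq2. With both Q140 states together, 16 mice labelled Msh3-/- against 16 labelled as carrying no Msh3 mutation, none was called where 0.215% of all genes were, and 0 had an unadjusted p under 0.05. In that comparison 29 of the 31 intervals lay within 0.25 on the log2 scale and all 31 within 0.5.

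Gpr34 had the smallest p of the members in both comparisons of Msh3 labels among Q140 mice. Its mean was 8.34 ± 1.2 CPM in Q140, 9.64 ± 1.39 CPM in Q140 Msh3+/- and 9.45 ± 1.46 CPM in Q140 Msh3-/- (SD, n = 8 each). The Q140 libraries ran from 6.74 over 8.22 to 9.92 CPM, those of Q140 Msh3-/- from 7.24 over 9.97 to 10.9 CPM, and every pair of groups overlapped. The log2 fold changes were 0.22 ± 0.07 and 0.18 ± 0.07, with adjusted p of 0.730 and 0.688 (edgeR), and the second was 0.087 with well row as a term. Trem2, the lipid-sensing receptor whose upstream stretch holds the core at position -40, was at 7.46 over 9.70 to 10.3 CPM in Q140 and 8.32 over 10.8 to 11.7 CPM in Q140 Msh3+/-, a difference of 0.17 ± 0.08 (adjusted p = 0.777, edgeR). Itgb5 differed by 0.10 ± 0.05 between Q140 Msh3-/- (28.9 to 34.6 CPM) and Q140 (27.2 to 33.4 CPM; adjusted p = 0.715, edgeR).

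Without Q140, the members of smallest p were P2ry12 and its neighbour P2ry13 for the label Msh3+/-, and Fcrls and the tetraspanin Cd53 for the label Msh3-/-. P2ry13, a second ADP receptor, ran from 7.46 over 8.98 to 11.4 CPM in Msh3+/- and from 8.49 over 9.60 to 13.3 CPM in wild type, a log2 fold change of -0.15, which was -0.088 without wild type male 4. P2ry12 ran from 27.1 over 30.2 to 34.0 CPM in Msh3+/- and from 26.9 over 31.3 to 37.8 CPM in wild type. Cd53 ran from 4.41 over 4.82 to 6.2 CPM in Msh3-/- and from 4.68 over 5.29 to 6.44 CPM in wild type. Wild type was the group of higher median in each of these, inside overlapping ranges. With well column as a term P2ry12 came to -0.018 and P2ry13 to -0.086, and with red cell level as a term Fcrls came to -0.08 and Cd53 to -0.06. Over both Q140 states the smallest p values in Msh3-/- belonged to Itgb5, at 0.06 with 26.7 to 34.6 CPM against 27.2 to 33.4 CPM, and Ly86, a partner of a Toll-like receptor homologue, at 0.13 with 4.38 to 7.66 CPM against 3.91 to 6.86 CPM.

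Whether the Msh3 label altered the effect of Q140 was tested as a difference of differences. None of the 31 was called for the label Msh3+/- (0% of all genes called; 3 of 31 at an unadjusted p under 0.05) or for Msh3-/- (0% of all genes; 0 of 31), by edgeR or DESeq2. Gpr34 led both, with differences of 0.30 ± 0.10 and 0.19 ± 0.10 on the log2 scale (adjusted p = 0.999 and 0.9999, edgeR); the second was 0.058 with well row as a term. These comparisons share the Q140 and wild type libraries. Hpgds followed for the label Msh3+/- at 0.25 ± 0.12 and Fcrls for Msh3-/- at 0.18 ± 0.10. The effect of Q140 in males minus that in females gave no call among the members either (0% of all genes; 1 of 31 at an unadjusted p under 0.05). It was lowest in p for Inpp5d, a phosphatase that restrains Trem2 signalling, at -0.17 ± 0.06, with a Q140 difference of 0.08 ± 0.05 in females and -0.09 ± 0.04 in males. Siglech, a sialic acid-binding lectin, was next at -0.12 ± 0.07. Its level ran from 10.2 over 11.5 to 13.5 CPM with Q140 and from 10.4 over 11.4 to 12.2 CPM without in females, and from 9.53 over 11.4 to 13.1 CPM with Q140 and from 10.7 over 11.9 to 13.1 CPM without in males (n = 12 each). All 4 ranges overlapped. With well column as a term the difference was -0.087 for Inpp5d and -0.025 for Siglech, and without the libraries of high red cell level it was -0.107 and -0.227.

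Across the 6 groups the microglia genes stayed close in mean. The highest group mean was 1.05 to 1.16 times the lowest, with a median over the 31 genes of 1.08, and the libraries of the 2 extreme groups overlapped for all 31. Among the complement chains, C1qa ran from 32.2 ± 2.9 CPM in Q140 to 33.9 ± 3.20 CPM in Q140 Msh3+/-, C1qb from 30.8 ± 2.44 CPM in Msh3+/- to 32.5 ± 3.20 CPM in Msh3-/-, and C1qc from 28.1 ± 2.56 CPM in Msh3+/- to 29.7 ± 2.93 CPM in Q140 Msh3-/- (SD, n = 8, here and in the next sentences). The Trem2 adaptor Tyrobp ran from 7.84 ± 0.868 CPM in Msh3+/- to 8.25 ± 0.728 CPM in Q140 Msh3-/-. The Fc receptor chain Fcer1g ran from 5.07 ± 0.608 CPM in Q140 Msh3-/- to 5.39 ± 0.594 CPM in Msh3+/-, and the Fc receptor Fcgr3 from 8.54 ± 1.34 CPM in Msh3+/- to 9.30 ± 0.771 CPM in Q140. None of these spans exceeded the sum of the SDs beside it.

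The lysosomal genes were as level. Ctss ran from 51.7 ± 3.62 CPM in Msh3+/- to 54.3 ± 7.08 CPM in wild type and Cd68, a glycoprotein of phagocytic lysosomes, from 7.84 ± 1.12 CPM in Q140 Msh3-/- to 8.28 ± 1.32 CPM in Msh3-/-. The identity factor Sall1 ran from 29.3 ± 1.25 CPM in Msh3+/- to 30.7 ± 1.2 CPM in Q140 Msh3-/-. Spi1 ran from 2.15 ± 0.462 CPM in wild type to 2.47 ± 0.315 CPM in Q140 Msh3-/-. Among surface molecules, Tmem119 ran from 15.1 ± 1.37 CPM in Msh3+/- to 17.2 ± 1.62 CPM in Q140 Msh3-/-, and Itgam (CD11b) from 6.98 ± 0.649 CPM in Msh3+/- to 7.68 ± 0.693 CPM in Q140. Selplg, a ligand of selectins, ran from 25.8 ± 2.43 CPM in Msh3+/- to 27.7 ± 2.35 CPM in Q140 Msh3+/-. Ptprc ran from 3.55 ± 0.298 CPM in Q140 Msh3+/- to 3.84 ± 0.721 CPM in wild type. Csf3r, the receptor of granulocyte colony-stimulating factor, ran from 6.37 ± 1.3 CPM in Msh3+/- to 6.97 ± 1.23 CPM in wild type. The summed level of the members was 596 ± 31.3 CPM in wild type, 581 ± 23.8 CPM in Msh3+/-, 601 ± 40.1 CPM in Msh3-/-, 589 ± 38.0 CPM in Q140, 607 ± 37.7 CPM in Q140 Msh3+/- and 605 ± 35.9 CPM in Q140 Msh3-/-.

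Sex was the factor that some of the microglia genes followed. Over the 6 genotypes, 24 males against 24 females, 7 of the 31 genes were lower in males and 0 were higher at an adjusted p under 0.05 (edgeR), where 4.28% of all genes tested were called and 2.65% were called lower in males. The 7 were the scavenger receptor-like Fcrls, the lysophosphatidylserine receptor Gpr34, the 3 C1q chains, the Fc receptor chain Fcer1g and the matrix protein Olfml3. The median log2 fold change of the 31 members was -0.04 and that of all genes 0.00. The 3 C1q chains are separate genes in a row on chromosome 4, so they are not independent pieces of evidence.

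Fcrls ran from 14.8 over a median of 19.7 to 22.4 CPM in females and from 12.5 over 15.9 to 20.01 CPM in males. 23 of the 24 males lay below the female median, and 10 females lay above every male. The level in males was 0.83 times that in females (95% interval 0.78 to 0.87; log2 fold change -0.28 ± 0.04, adjusted p = 9.58e-06, edgeR). The gene lies at chr3:87250758-87263738 on the minus strand (GRCm38, GENCODE M21).

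Gpr34 ran from 7.88 over 9.72 to 12.3 CPM in females and from 6.74 over 8.06 to 9.69 CPM in males. All 24 males lay below the female median and 13 females lay above every male, while the ranges still overlapped. The ratio of males to females was 0.83 (0.78 to 0.88; log2 fold change -0.27 ± 0.04, adjusted p = 1.40e-05, edgeR). Gpr34 lies at chrX:13632089-13640858 on the plus strand, inside the body of Cask, which is read from the other strand with no shared exon. Cask, whose kinase-like product sits at synapses, had a log2 fold change of 0.03 ± 0.02 between the sexes (adjusted p = 0.563, edgeR) at 88.3 ± 4.50 CPM in females and 90.02 ± 4.52 CPM in males.

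The C1q chains moved by less. C1qb, whose upstream stretch holds the core at position -30, ran from 27.6 over 33.8 to 44.9 CPM in females and from 26.2 over 30.2 to 33.5 CPM in males. All 24 males were below the female median. The ratio was 0.90 (0.85 to 0.95; adjusted p = 0.00977, edgeR). C1qa ran from 29.1 over 34.6 to 40.9 CPM in females and from 27.1 over 31.4 to 35.8 CPM in males, a ratio of 0.92 (0.87 to 0.96; adjusted p = 0.0246, edgeR). Its call was lost with the name stems of the labels as a random block (adjusted p = 0.0541, limma). C1qc ran from 25.9 over 30.3 to 35.5 CPM in females and from 23.4 over 27.5 to 32.0 CPM in males, a ratio of 0.92 (0.88 to 0.96; adjusted p = 0.0142, edgeR). Between the sexes the ratio of C1qa to C1qc by FPKM was 2.11 ± 0.125 in females and 2.11 ± 0.0839 in males. They lie at chr4:136895917-136898803 (C1qa), chr4:136889804-136893065 (C1qc) and chr4:136880129-136886187 (C1qb), all on the minus strand.

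Fcer1g, the signalling chain shared by Fc receptors, ran from 4.47 over 5.51 to 6.36 CPM in females and from 3.79 over 4.88 to 6.24 CPM in males. The ratio was 0.88 (0.82 to 0.94; adjusted p = 0.0117, edgeR). Its relative Tyrobp had a log2 fold change of -0.05 ± 0.04 (adjusted p = 0.611, edgeR), and the ratio of Fcer1g to Tyrobp by FPKM was 0.528 ± 0.059 in females and 0.478 ± 0.0547 in males. Olfml3, whose stretch before the start holds no copy of the core, ran from 11.1 over 14.8 to 21 CPM in females and from 11 over 13 to 15.3 CPM in males. 23 of 24 males were below the female median and 11 females were above every male, at a ratio of 0.87 (0.81 to 0.93; adjusted p = 0.0128, edgeR). Fcer1g lies at chr1:171229572-171234365 and Olfml3 at chr3:103722222-103738001, both on the minus strand.

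**Figure D3:**
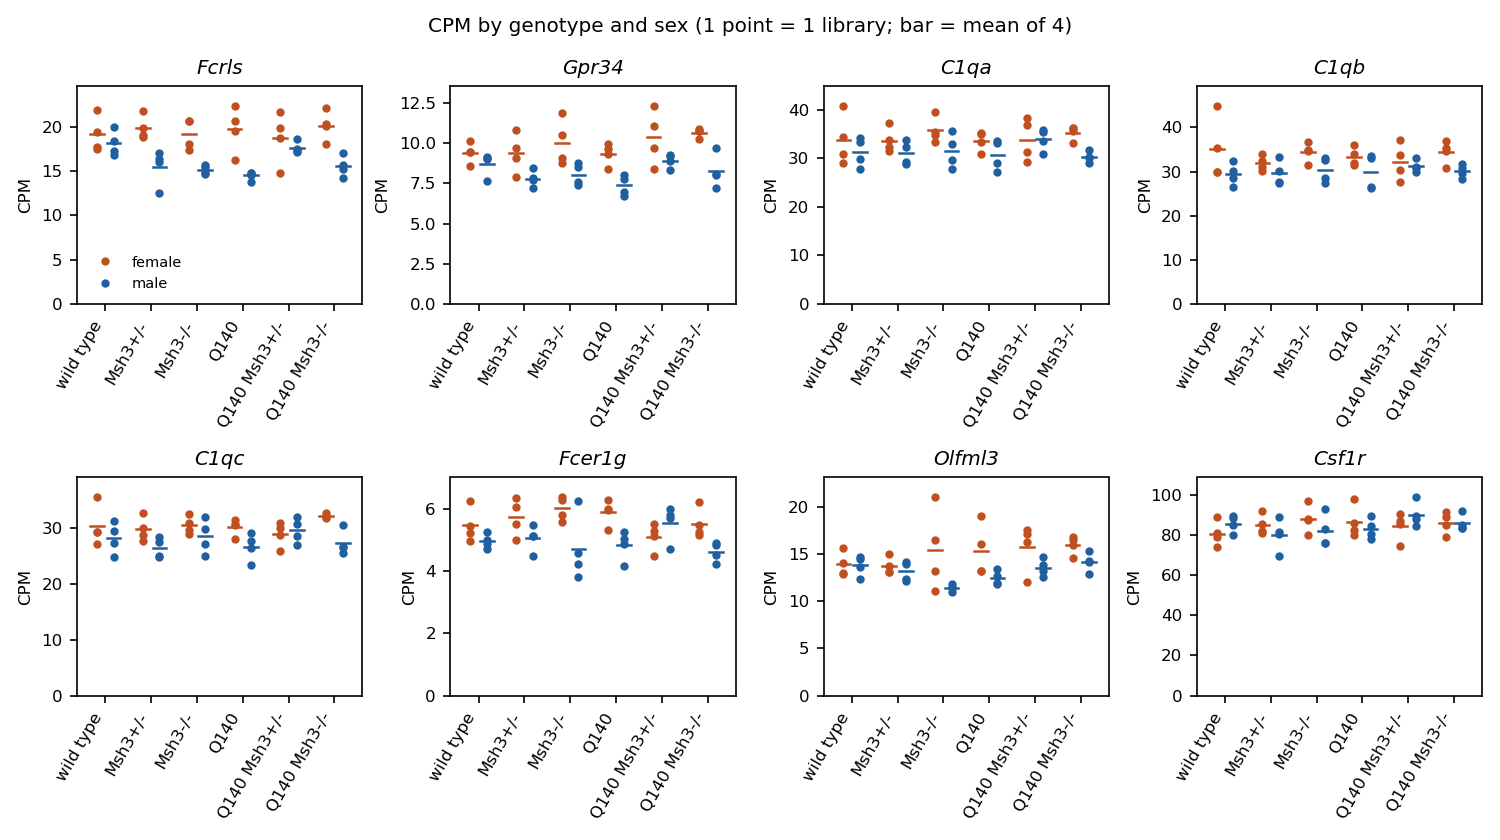
CPM (axis from 0) of the 7 microglia genes called lower in males and of Csf1r, by genotype, females and males side by side; each point is 1 library and each bar the mean of 4. Male bars lie below female bars in most genotypes for the 7 genes, with Q140 Msh3+/- the exception for C1qa, C1qc and Fcer1g.

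Some other members had intervals that left little room for a sex difference of that size. Csf1r had a log2 fold change of -0.01 with a 95% interval from -0.07 to 0.05, Cx3cr1 one of 0.01 from -0.05 to 0.07, and Sall1 one of 0.00 from -0.04 to 0.05. Tmem119, Itgam, Laptm5, Fcgr3, Hpgds and Inpp5d lay within 0.03 of 0. P2ry12 was the member with the most positive value, 0.09 with an interval from 0.03 to 0.16 and an adjusted p of 0.1002 (edgeR). It was higher in males within 6 of 6 well columns of the plate, of which 1 wholly and others partly confound sex with Q140. Just outside the threshold on the lower side was Csf3r at -0.17 ± 0.06 (adjusted p = 0.0820, edgeR). Of the members not called, Trem2, Tyrobp, Itgb5, Cd68, Csf3r and Spi1 had a lower mean in males in 5 of 6 genotypes. P2ry12 did in 1 of 6 and P2ry13 in 2 of 6. Trem2 averaged 10.3 ± 1.08 CPM in females and 9.62 ± 1.12 CPM in males, and Cd68 8.34 ± 1.07 and 7.75 ± 0.947 CPM (SD, n = 24 each). The difference in sex effect between members was not tested.

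Within genotypes, with 4 mice of each sex, the mean of Fcrls, Gpr34, C1qb and Olfml3 was lower in males in 6 of 6 genotypes, although that of Olfml3 in wild type came to 0.00 ± 0.12 in the fit. For C1qa, C1qc and Fcer1g it was lower in 5 of 6. Fcrls differed least in wild type, at -0.07 ± 0.09 on the log2 scale, and most in Q140, at -0.44 ± 0.09. Gpr34 went from -0.10 ± 0.10 in wild type to -0.37 ± 0.10 in Q140 Msh3-/-. Fcer1g was at -0.38 ± 0.11 in Msh3-/- and 0.12 ± 0.11 in Q140 Msh3+/-. Fcrls in Q140 was the only one of these 42 values (7 genes in 6 genotypes) to pass over all genes; the spread of the sex effect over genotypes was tested only between Q140 carriers and non-carriers, with no call (above).

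The sexes were not spread evenly over the plate, and other transcripts moved with sex. Well column 1 held 6 females and 2 males, and column 6 held 2 females and 6 males; 7 of the 8 mice in column 1 carried Q140. In column 4 all 5 females lacked Q140 and all 3 males carried it, so sex and Q140 cannot be told apart there. In column 6 the 2 females carried Q140 while 4 of the 6 males lacked it. In column 3 all 4 males lacked Q140 while 2 of the 4 females carried it. Sex and Q140 were thus partly mixed in those columns too. Within each of the 5 columns other than column 4, all 7 genes were lower in males. Gpr34 lay between -0.46 and -0.15 and C1qc between -0.28 and -0.03 on the log2 scale. With well column as a term the fit called 5 of the 31 members, without C1qa (adjusted p = 0.0617) and Olfml3 (0.0516), and with well row it called 3, without C1qa, C1qb, C1qc and Olfml3 (adjusted p of 0.0983, 0.0833, 0.0605 and 0.105, edgeR). Fcrls, Gpr34 and Fcer1g passed in both. Calls by sex over all genes also varied with the setting, from 279 to 986 over the 13 alternatives, beside 837 in the main fit.

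Red cell genes were lower in males in 4 of 4 tested, Hba-a1, Hba-a2, Hbb-bs and Hbb-bt, with Hba-a1 at -2.02 ± 0.48 on the log2 scale, and summed to 0.0699 to 22.7 CPM in females and 0.1197 to 7.33 CPM in males. Without the 11 libraries of high red cell level 8 members were called, the 7 and Csf3r, and with that level as a term 8 were as well. Most of the 11 were female, in Q140 Msh3+/- and Msh3-/- above all, so the first of these fits thinned the sexes unevenly. Oligodendrocyte genes were lower in males in 3 of 6, Mobp, Mag and Mbp, at -0.28, -0.26 and -0.16, and summed to 1939 ± 216 CPM in females and 1725 ± 200 CPM in males (n = 24 each). With that level as a term 3 members stayed called, Fcrls, Gpr34 and C1qb (adjusted p = 1.88e-04, 6.97e-04 and 0.0411, edgeR), while the log2 fold changes of C1qa, C1qc, Fcer1g and Olfml3 were -0.12, -0.13, -0.20 and -0.21. Pituitary genes were higher in males in 2 of 3 tested, Prl at 3.72 ± 0.69 and Gh at 2.19 ± 0.57. Without the 3 libraries of high choroid plexus or pituitary level, all of them male, Prl came to 2.02 ± 0.58 (adjusted p = 0.0344, edgeR), Gh was not called at 1.53 ± 0.60 (0.153), and all 7 members were called again. Of the border macrophage genes, Siglec1 and Clec10a were lower in males, at -1.32 ± 0.22 and -0.71 ± 0.15, the other 14 of 16 were not called, and the list summed to 20.3 to 47.6 CPM in females and 18.6 to 43.4 CPM in males. The part of border macrophages in the sex result was not tested.

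Genes of the same pathways gave a wider frame, with lists that were chosen, like the members, when earlier results of these data were known. Of 24 further genes of resting microglia tested, 1 rose in Q140 carriers (Adgrg1, an adhesion receptor also made by neural progenitors and astrocytes, 0.16 ± 0.04, adjusted p = 0.0281, edgeR), 0 fell, and 0 were called by sex; their median was -0.02 in carriers and -0.03 in males. Of 26 genes of activated or disease-associated microglia tested, 0 were called in Q140 carriers, with Ank at 0.04 ± 0.02 and Apoe, the lipid carrier of this state and of astrocytes, at -0.06 ± 0.03. In males 4 of the 26 were lower, the cathepsins Ctsz (-0.16 ± 0.03), Ctsb (-0.07 ± 0.02) and Ctsd (-0.08 ± 0.02) and the MHC light chain B2m (-0.13 ± 0.04), none of which is confined to microglia. Of 26 further complement genes tested, 0 were called in carriers; in males C1s1 and C1ra, the proteases of the C1 complex, were higher at 0.33 ± 0.08 and 0.20 ± 0.06, while the receptor C5ar1 and the inhibitor Cd59a were lower at -0.42 ± 0.12 and -0.30 ± 0.09. The proteases thus differed in the direction opposite to the C1q chains they join.

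Among 14 ligands and partners tested, the neuronal growth factor Il34 was at 41.2 ± 2.43 CPM in carriers and 39.1 ± 2.42 CPM in the others, a log2 fold change of 0.08 ± 0.02 (adjusted p = 0.106, edgeR). Csf1 was at 21.2 ± 1.41 and 21.4 ± 1.43 CPM and the chemokine Cx3cl1 at 777 ± 39.9 and 789 ± 70.7 CPM. Clu, an astrocytic lipid carrier that Trem2 binds, fell in carriers at -0.12 ± 0.03 (adjusted p = 0.0179, edgeR), the 1 call of that list; 0 were called by sex. Of 22 kinases, adaptors and Fc receptors downstream of Trem2 and Fcer1g, 0 were called in carriers, and in males the Src-family kinase Lyn alone was called, lower at -0.24 ± 0.04 (adjusted p = 8.72e-05, edgeR). It was at 7.67 ± 0.728 CPM in females and 6.47 ± 0.655 CPM in males. Of 16 myeloid transcription factors, 0 were called in carriers and 1 in males, Mef2a at 0.06 ± 0.02, which neurons also express.

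Markers of other cells gave the setting for these values in Q140 carriers. Astrocyte genes fell in 5 of 8 tested (the glutamate transporters Slc1a2 at -0.18 ± 0.02 and Slc1a3 at -0.11 ± 0.03, Glul at -0.16 ± 0.02, Gja1 at -0.14 ± 0.03 and Slc4a4 at -0.13 ± 0.02), with a summed level of 6527 ± 310 CPM in carriers against 7310 ± 379 CPM in the others. Among neuronal genes Rbfox3 fell at -0.09 ± 0.02, 1 of 6. The T-cell gene Cd4, which some macrophages also express, fell at -0.49 ± 0.10, 1 of 4 lymphocyte genes tested, and the hormone gene Gh at -2.80 ± 0.69, 1 of 3 pituitary genes. The 3 libraries of high choroid plexus or pituitary level are all non-carriers (wild type male 2 and Msh3+/- males 1 and 2), and without them Gh was at -2.41 ± 0.65 (adjusted p = 0.0471, edgeR). None was called of 16 border macrophage genes, 7 choroid plexus genes, 8 meningeal genes, 6 endothelial genes, 6 oligodendrocyte genes, 4 red cell genes or 2 blood myeloid genes. In the lists with no call in any comparison, the smallest p values in carriers belonged to Mmp9 and Ccr2 (blood myeloid, -0.08 and 0.01), Folr1 and Ttr (choroid plexus, -1.04 and -1.55), Flt1 and Slco1a4 (endothelial, -0.26 and -0.08) and Lum and Col1a1 (meningeal, -0.22 and -0.26), with adjusted p between 0.146 and 0.989 (edgeR). In the single comparisons, Slc1a2 fell in Q140 against wild type and on the Msh3+/- background, Glul and Slc4a4 fell in Q140 against wild type, and Prl was called at -4.38 ± 0.91 in Q140 and -5.28 ± 1.02 in Msh3-/-, both against wild type. Wild type male 2 held 34 CPM of Prl and the next wild type library 5.6 CPM; without the 3 libraries neither was called, at -2.58 ± 0.76 and -3.46 ± 0.86 (adjusted p = 0.306 and 0.143, edgeR). In males, beside the lists above, the calls were Gja1 among astrocyte genes and Slc17a7 among neuronal genes, at 0.11 ± 0.03 and 0.06 ± 0.02, and Igkc and Ighm among lymphocyte genes, at 0.88 ± 0.23 and -0.39 ± 0.10; no endothelial, meningeal, choroid plexus or blood myeloid gene was called.

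Mice of 1 genotype and sex also differed from each other. With the mean of each genotype and sex removed from the log2 CPM, 441 of the 465 pairs of members (94.8%) correlated above 0 over the 48 libraries, with a median Pearson r of 0.271 and a range from -0.351 to 0.891. Over all pairs of the 19547 genes tested 49.6% were above 0, with a median r of -0.002. All these values share the libraries and their scaling, and no test is given for the set. Ctss had the highest median r with the other 30 members, 0.424, and Itgb5 the lowest, 0.12, followed by Spi1 at 0.131. Gpr34 had a median of 0.208, with Tyrobp its closest partner at 0.405.

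**Figure D4:**
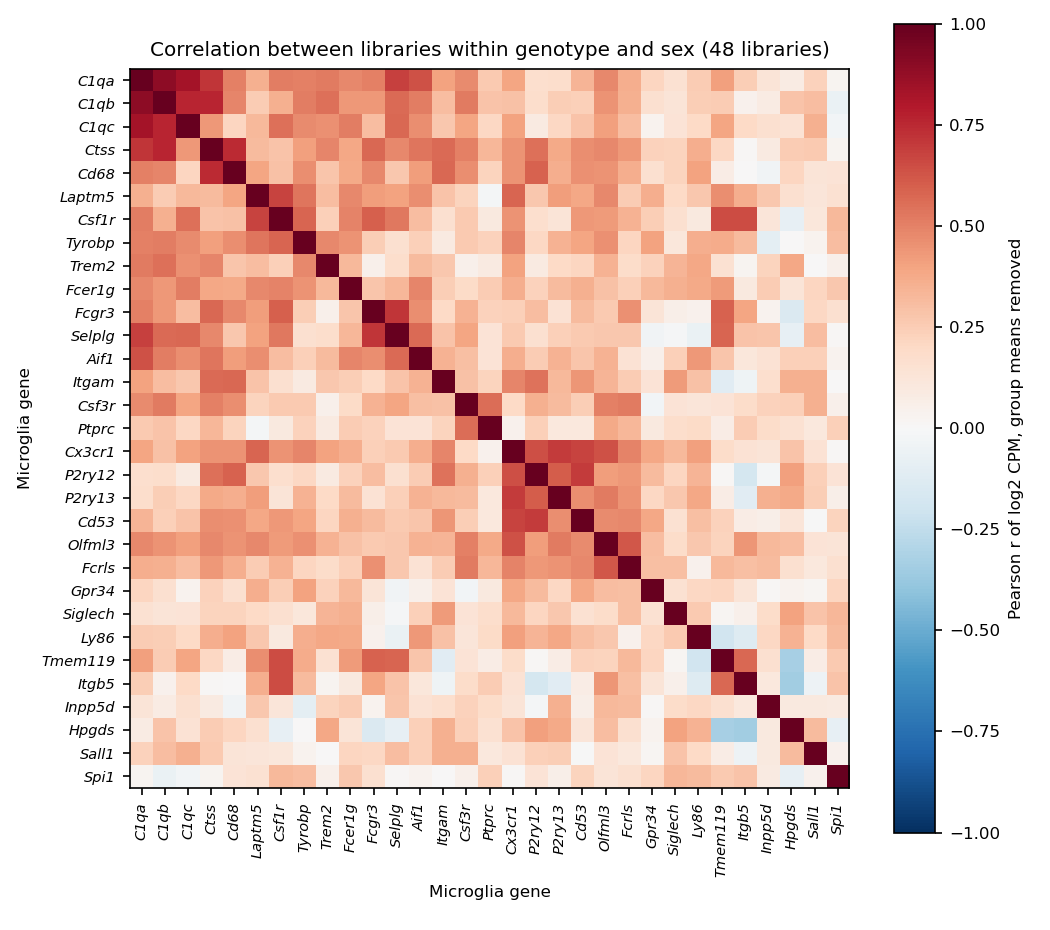
Pearson r between the microglia genes over 48 libraries, log2 CPM with genotype-and-sex means removed; red is positive and blue negative. The C1q chains among themselves, and Cx3cr1 with P2ry12, P2ry13 and Cd53, are among the reddest blocks. Other red pairs include Cd68 with Ctss at 0.748, Selplg with Fcgr3 at 0.712 and Csf1r with Laptm5 at 0.672. Hpgds against Itgb5 reaches -0.351.

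18 chosen pairs of members were tested, each with 100000 permutations and Benjamini-Hochberg adjustment over the 18, and 13 passed at an adjusted p under 0.05. The permutations ran freely over the 48 libraries after the genotype-and-sex means were removed. They made no allowance for the means removed, so the p-values are somewhat too small. Each test was set against an r of 0, while the 465 pairs of members had a median r of 0.271. A pass therefore does not set a pair apart from other pairs of members, and the share of passes over all 465 was not computed. C1qa and C1qb, chains of 1 protein, correlated at r = 0.891 and rho = 0.868 (permutation p = 1e-05 for both, the smallest these permutations can give; adjusted p = 3e-05 and 4.5e-05). Without the 2 libraries farthest from the median of C1qa r was 0.863, and within well columns of 8 libraries it lay between 0.265 and 0.964. C1qa with C1qc reached r = 0.833 and rho = 0.824, and C1qb with C1qc r = 0.765 and rho = 0.758, all at the same adjusted p. The lysosomal pair Cd68 and Ctss reached r = 0.748 and rho = 0.734, with 0.57 to 0.859 within well columns and 0.721 without the 2 farthest libraries (permutation p = 1e-05).

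Among receptors, Cx3cr1 and P2ry12 had r = 0.641 and rho = 0.543 (permutation p = 1e-05 and 8e-05; adjusted 3e-05 and 2.88e-04), 0.585 without the 2 farthest libraries, and stayed above 0 in 6 of 6 well columns (0.335 to 0.965). P2ry12 and P2ry13, which lie side by side on chromosome 3 inside the body of Med12l, read from the other strand, had r = 0.608 and rho = 0.545 (adjusted permutation p = 3e-05 and 4.8e-04), 0.505 without the 2 farthest and 0.023 to 0.93 within columns. An exon of Med12l overlaps one of P2ry12. Trem2 and Tyrobp, receptor and adaptor, had r = 0.484 and rho = 0.388 (permutation p = 4.6e-04 and 0.00661; adjusted 9.2e-04 and 0.0119), above 0 in 6 of 6 columns (0.35 to 0.666) and 0.387 without the 2 farthest. Tyrobp and Fcer1g had r = 0.447 and rho = 0.44 (adjusted permutation p = 0.00257 and 0.00384), 0.353 without the 2 farthest libraries and 0.121 to 0.572 within columns. Csf1r with Cx3cr1 had r = 0.449 and rho = 0.349 (adjusted permutation p = 0.00229 and 0.023), 0.49 without the 2 farthest and above 0 in 5 of 6 columns. C1qa with Csf1r, C1qa with Cx3cr1 and Trem2 with C1qa had r of 0.512, 0.391 and 0.522 and rho of 0.507, 0.379 and 0.476 (adjusted permutation p for r of 4.72e-04, 0.00886 and 3.09e-04), and 0.432, 0.334 and 0.487 without the 2 farthest libraries. The lowest values within a column were 0.345, -0.098 and -0.16.

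5 of the 18 pairs did not pass. Cx3cr1 and Tmem119, both standard markers of resident microglia, had r = 0.187 and rho = 0.019 (permutation p = 0.204 and 0.895; adjusted 0.245 and 0.948), and r fell to 0.019 without the 2 farthest libraries, with -0.468 to 0.76 within columns. Sall1 with Spi1 had r = 0.047 and rho = 0.004, and Sall1 with Csf1r r = 0.112 and rho = 0.091 (adjusted permutation p for r of 0.787 and 0.505). Itgb5 and Itgam had r = -0.04 and rho = -0.061 (adjusted permutation p = 0.787 for r). Fcer1g and Fcgr3, chain and receptor of 1 complex, had r = 0.281 and rho = 0.217 (permutation p = 0.0531 and 0.137; adjusted 0.0683 and 0.176). Among those that passed, Spi1 with its target Csf1r had the largest adjusted p: r = 0.321 and rho = 0.308 (adjusted permutation p = 0.0378 and 0.0457), 0.299 without the 2 farthest libraries and -0.366 to 0.383 within well columns, at 61 to 174 reads of Spi1 per library. This pass lay near the threshold, and with p-values somewhat too small it is not secure.

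**Figure D5:**
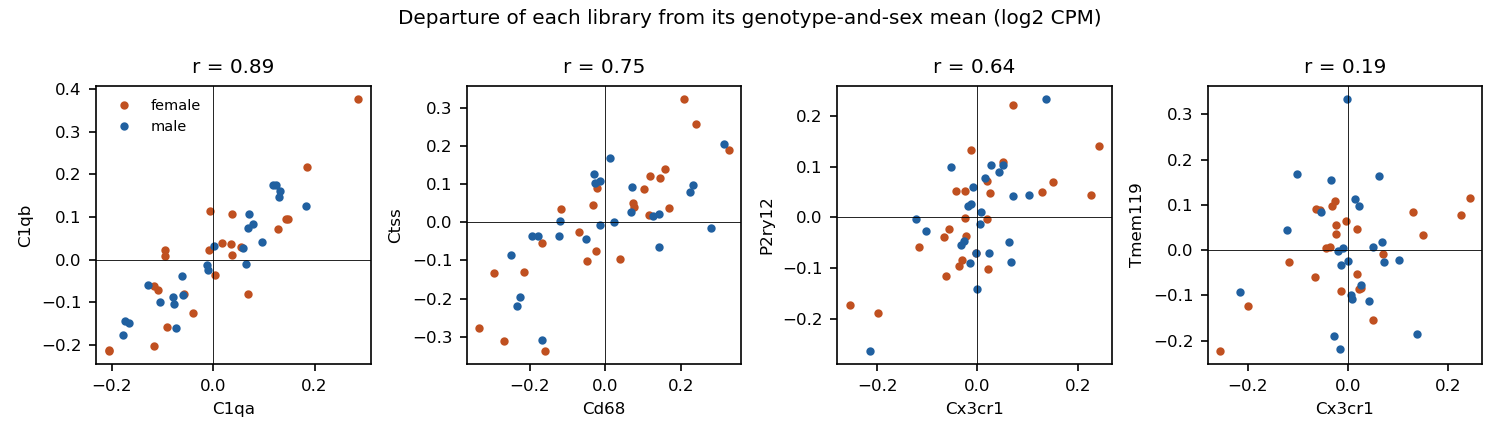
Departure of each library from the mean of its genotype and sex (log2 CPM) for 4 pairs of microglia genes, with Pearson r above each panel; each point is 1 library, coloured by sex. C1qa and C1qb lie along a line (r = 0.89), Cd68 with Ctss and Cx3cr1 with P2ry12 scatter around one, and Cx3cr1 with Tmem119 shows a cloud (r = 0.19).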

How the data were processed

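RNA of 48 mouse cortices was sequenced from Illumina TruSeq stranded libraries, per the labels' protocols. The authors deposited whole-number counts per gene and FPKM values; the submitters' processing notes name the build GRCm38 (mm10) with the tools HTSeq 0.12.3, STAR 2.7.5c and SAMtools 1.10. The annotation release and the strand setting of the counting are not given in the sources used here, so reads of overlapping genes on opposite strands (Gpr34 with Cask, P2ry12 and P2ry13 with Med12l, Csf1r with Hmgxb3) may not be separated, and Itgam shares exon sequence with Gm49368 on its own strand. 1 protocol label names striatum at another age, against cortex at 12 months in the title, tissue and age labels, which were followed. In the deposited FPKM values, the ratio to counts gave a constant length for all genes checked.

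Counts were tested with edgeR 4.0.16 (R 4.3.3; TMM factors, quasi-likelihood test with robust dispersion) in 1 fit of 6 groups plus sex over 48 libraries. Genes with a count of at least about 10 in enough libraries and 15 in all were kept (19547 of 48795), and p-values were adjusted over all of them; the call was an adjusted p under 0.05. The effect of Q140 by sex and the sex differences within genotypes came from a fit of 12 genotype-by-sex means. CPM values used the library totals over the genes kept, scaled by the TMM factors. Correlations used log2 CPM with a prior count of 2. Levels of members are given by group, and from lowest over median to highest for members called or of the 2 smallest p-values in a comparison. From the 17 other gene lists, each gene called in any comparison is named, or else the 2 of smallest p in Q140 carriers against non-carriers, with Msh3, Htt, Csf1, Il34 and Cx3cl1 always. Alternatives included DESeq2 1.42.0 and limma 3.58.1. The test was tried on simulated counts with known changes. Library totals of 37.7 M to 68.3 M reads set the counting precision.

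The members and lists were chosen with earlier results of these data known. The labels list the mice as separate animals. Replicate numbers did not pair libraries of different genotype (median r of 120 pairs 0.00837, with 10 over 0.1), while 12 of the 27 name stems in the labels cover more than 1 library. No sequence is shown of the 7 members without a promoter window.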

Additional observations from a re-analysis of the deposited data

Results flagged for a closer look

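In 9 of the 186 combinations of a microglia gene and a genotype group, 1 of the 8 libraries stood apart from the other 7 by Dixon's criterion, which is 4.84% of them, where chance flags about 1 in 20. 4 of the 9 concerned the same library, Q140 Msh3+/- female 1. It was low for Cx3cr1 (34.0 CPM against 39.8 to 45.0 CPM in the other 7), P2ry12 (27.9 against 31.2 to 34.2 CPM), Tyrobp (5.50 against 7.50 to 9.14 CPM) and Cd53 (3.49 against 4.64 to 5.63 CPM). Its summed level of the members, 525 CPM, was the lowest of the 48, and it held the lowest value of its group for 19 of the 31 genes. Q140 Msh3-/- male 1, at 530 CPM in sum, held the lowest of its group for 20, Q140 male 2 for 16 and Msh3+/- male 3 for 13. In Q140 Msh3+/- female 1 the red cell genes summed to 7.95 CPM, less than the 21.3 and 11.5 CPM in females 3 and 4 of its group. Those 2 libraries held 636 and 602 CPM of the members. The meningeal genes of female 1 summed to 21.1 CPM, the lowest of the 48, and its border macrophage genes to 20.3 CPM. Q140 Msh3+/- female 1 is part of the female mean of its group, in the genotype where C1qa, C1qc and Fcer1g were not lower in males. Whether this library bears on that was not tested.

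In Q140 Msh3-/-, male 1 was low for Aif1 at 1.78 CPM (others 2.58 to 3.27 CPM) and female 1 high for Cd53 at 7.62 CPM (others 4.37 to 5.74 CPM). Msh3-/- female 3 was high for Cx3cr1 at 51.2 CPM (others 40.4 to 42.8 CPM). In Msh3+/-, male 3 was low for Fcgr3 at 5.63 CPM (others 8.14 to 9.76 CPM) and female 4 high for Trem2 at 12.3 CPM (others 8.15 to 9.92 CPM).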

How the results depend on the processing

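No microglia gene was called in the 12 comparisons by genotype, interactions included, under any alternative run: DESeq2, upper quartile and RLE factors, no filter, a filter of 1 CPM in 8 libraries, the compared groups alone, no sex term, well column, well row, replicate block, name stem as a random block, or each library left out. 4 alternatives on libraries and on red cell and oligodendrocyte levels, chosen after seeing the data, gave no call either. The count of 7 for sex stayed between 7 and 8 when each of the 48 libraries was left out, and all 7 genes were called in each of those fits. It was 7 with the replicate block, 6 with name stem (without C1qa), 5 with well column, 3 with well row and 3 with oligodendrocyte level as a term. Fcrls and Gpr34 were called in 13 of 13 alternatives, and all 7 genes stayed lower in males in 13 of 13. Over all genes tested the calls by sex also varied, from 279 to 986 over the 13 alternatives, beside 837 in the main fit. The compared groups alone give no other fit for comparisons that use all 48 libraries, and leaving out the sex term gives none for sex or for the effect of Q140 by sex. 13 of 18 correlations passed, by permutation p-values that are somewhat too small, and 1 reversed: Itgb5 with Itgam came to 0.045 without removal of the genotype and sex means, its adjusted p not past the threshold in either setting. Of the 31 fold changes named for members, 13 moved by over 1.5 times under some alternative and 2 on leaving out 1 library, Olfml3 and P2ry13. The low counts of Spi1, Aif1 and Ptprc limit their precision most.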
